A study of Mus musculus with 16 samples.

Results

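The microRNAs miR-452 (mmu-miR-452 on the array) and miR-224 (mmu-miR-224) are made from neighbouring hairpins inside Gabre, the mouse gene of the epsilon subunit of the GABA-A receptor. They were 2 of the 577 miRNAs on an Agilent array hybridised with RNA of cultured mouse mast cells. miR-452 was picked for its rise in mucosal-type mast cells, so every value that sets these cells against another group is a description here and carries no test. miR-224 was taken as the other hairpin of the locus, and all probes carrying either name were used, 2 for miR-452 and 4 for miR-224.

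The study followed mast cells of Balb/c mice grown from bone marrow in IL-3 (5 ng/ml) and SCF (20 ng/ml), with 4 arrays in each of 4 groups, described by the submitters as biological replicates. Mucosal-type mast cells (MMC) were cultures of 4 weeks that had received IL-9 and TGF-beta for 5 further days. IgE-crosslinked BMMC were cultures loaded with anti-DNP IgE and challenged with DNP antigen for 2 hours. BMMC, the bone marrow-derived mast cells of 4 weeks, had received neither IL-9 and TGF-beta nor antigen, and the labels do not say whether they were loaded with IgE. The c-kit+ progenitors were pulled from the cultures with magnetic columns on day 6. No group had the 5 further days without IL-9 and TGF-beta, so time in culture and these cytokines cannot be told apart, and the same holds for IgE loading and antigen challenge.

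A mature miRNA of about the length shown here guides silencing complexes to messenger RNAs, mainly through its seed, bases 2 to 8 from its 5′ end. A miRNA inside a protein-coding gene and on its strand can be cut from the transcript of that host gene. In mouse ovarian granulosa cells, miR-224 is known as a miRNA induced by TGF-beta, the cytokine given to the MMC cultures, and mouse miR-452 has been studied in neural crest cells. Gabre itself was not measured, since the array holds miRNA probes only.

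The 5p and 3p arms of both hairpins are shown to compare their seeds, which are in capitals (RefSeq, GRCm38.p6, 5′ to 3′).
mmu-miR-452-5p: uGUUUGCAgaggaaacugagac
mmu-miR-224-5p: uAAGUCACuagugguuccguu
mmu-miR-452-3p: uCAGUCUCaucugcaaagaggu
mmu-miR-224-3p: aAAUGGUGcccuagugacuaca
None of the other mature mouse miRNAs among the 1679 names searched had any of these 4 seeds. The 5p arms of miR-452 and miR-224 shared no run of letters longer than 3 bases. With any other mature miRNA, miR-452-5p shared at most 9 bases in a row, the case for miR-30a-3p and miR-6901-5p.

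The whole hairpins are given to show where the arms, in capitals, sit in each.
Mir452: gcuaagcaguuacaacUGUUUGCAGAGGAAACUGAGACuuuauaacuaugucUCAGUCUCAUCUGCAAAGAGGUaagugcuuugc
Mir224: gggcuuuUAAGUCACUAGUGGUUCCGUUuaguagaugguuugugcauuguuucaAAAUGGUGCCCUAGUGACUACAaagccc
In GRCm38.p6, Mir452 lies at chrX:72262224-72262308 and Mir224 at chrX:72261031-72261112, both on the minus strand. They are 1111 bases apart and are the 2 miRNA genes listed within Gabre (chrX:72256926-72274828), on the strand of Gabre. Exon borders were not used here, so exon and intron are not assigned.

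The array probes were placed by the array design in mm9. Both miR-452 probes start at chrX:69507610 and end at 69507626 (17 bases) or 69507627 (18 bases). The 4 miR-224 probes start at chrX:69506424 and cover 18 to 21 bases. The starts are 1186 bases apart, as are the low ends of both 5p arms in GRCm38.p6, while the other pairings of arms give 1150, 1198 or 1234 bases. The probes therefore lie on the 5p arms, and no array entry named the other arm of either miRNA. Within a miRNA the probes differ only in length, so they share their target and are not independent measurements.

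The arrays differed in overall brightness by group. The 75th percentile of the probes well above background on all 16 arrays was 780 ± 62.1 intensity units in MMC, 385 ± 50.2 in IgE-crosslinked BMMC, 1578 ± 199 in BMMC and 393 ± 52.6 in progenitors (SD, n = 4 each). Arrays were scaled to a common value of this percentile, and values are given below both scaled and as scanned. On progenitor replicate 4 the lowest signal well above background was 39.2 units, against 7.01 to 12.9 on the other 15 arrays, so this array stands apart for dim miRNAs. Each of the 2 slides held 2 arrays of every group. The blood-cell miRNAs miR-142-3p and miR-142-5p were well above background in all groups. The granulocyte and monocyte miRNA miR-223 had scaled signals of 144 to 200 in MMC, 302 to 500 in IgE-crosslinked BMMC, 244 to 379 in BMMC and 4209 to 7271 in progenitors. RNA came from whole cultures or sorted cells, so fewer cells with a miRNA and less of it per cell cannot be told apart.

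miR-452 was a dim miRNA with its highest scaled signal in MMC. On its brighter probe the 4 MMC arrays read 62.2, 63.3, 50.8 and 70.1 scaled units. The IgE-crosslinked BMMC arrays read 14.5, 15.7, 17.7 and 13.2. BMMC arrays gave 21.9, 31.6, 25.3 and 28.8, and progenitors gave 31.7, 16.1, 17.5 and 7.77. All MMC arrays lay above all others, all BMMC arrays lay above all IgE-crosslinked BMMC arrays, and the progenitors spanned the range of both. Progenitor replicate 1 was as high as the highest BMMC array, and replicate 4 was the lowest of the 16.

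Detection also differed between the groups. The brighter probe was well above background on 4 of 4 MMC arrays, 2 of 4 IgE-crosslinked BMMC arrays, 4 of 4 BMMC arrays and 1 of 4 progenitor arrays. Counted by spots, this was 39 of 39 in MMC, 20 of 38 in IgE-crosslinked BMMC, 39 of 39 in BMMC and 15 of 38 in progenitors. Repeat spots on an array varied with a coefficient of variation of 2.05% to 6.78% in MMC, 19.6% to 40.0% in IgE-crosslinked BMMC, 4.03% to 6.06% in BMMC and 11.9% to 72.8% in progenitors. The values in IgE-crosslinked BMMC and progenitors are therefore much less precise than those in MMC and BMMC.

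The second probe was dimmer. Its scaled signal was 31.5 ± 3.91 in MMC, 7.35 ± 1.22 in IgE-crosslinked BMMC, 13.3 ± 2.94 in BMMC and 15.3 ± 6.03 in progenitors (SD, n = 4 each). It was well above background on 4, 0, 4 and 2 arrays of these groups in that order. Because no IgE-crosslinked BMMC array measured it, the second probe gives only a bound there. MMC were at least 2.18-fold higher than the lowest signal that counted as well above background on the IgE-crosslinked BMMC arrays (31.3 against 14.4 scaled units, geometric means over arrays).

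**Figure D1:**
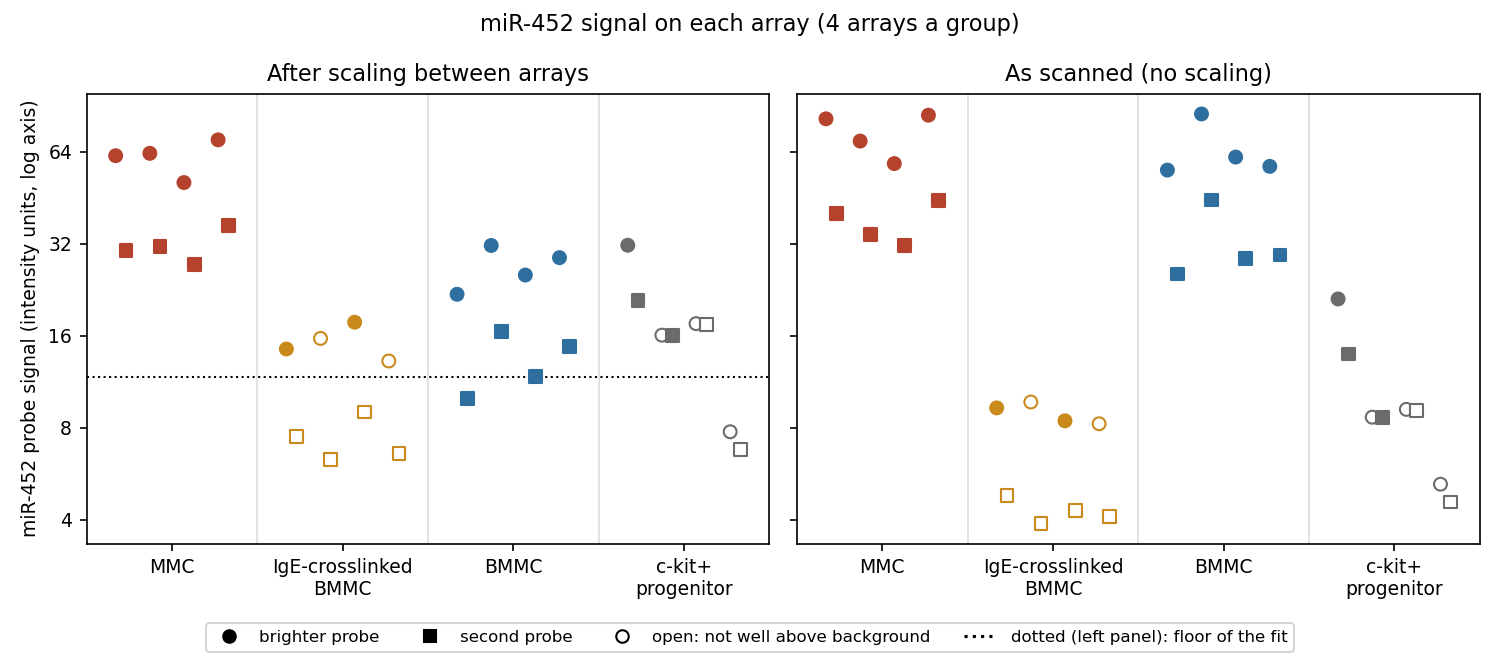
Signal of both miR-452 probes on each of the 16 arrays (y axis, intensity units on a log axis), scaled between arrays (left) and as scanned (right), by group with replicates 1 to 4 from left to right. Filled symbols are well above background and open symbols are not, and the dotted line is the floor of 11.8 units. After scaling all MMC circles lie above all others, while as scanned MMC (58.6 to 84.4) and BMMC (55.8 to 85.1) overlap.

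As scanned, MMC and BMMC were not separate. The brighter probe read 82.1, 69.4, 58.6 and 84.4 units in MMC, against 55.8, 85.1, 61.5 and 57.4 units in BMMC. BMMC replicate 2 was the highest of these 8 arrays, and the ranges overlapped. The as-scanned readings were 8.26 to 9.72 in IgE-crosslinked BMMC and 5.24 to 21.1 in progenitors. The separation of MMC from BMMC is thus a separation relative to the other miRNAs of each array.

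For fits, scaled signals below 11.8 were raised to that floor and put on a log2 scale. miR-452 then averaged 5.93 ± 0.19 in MMC, 3.93 ± 0.18 in IgE-crosslinked BMMC, 4.74 ± 0.23 in BMMC and 4.17 ± 0.60 in progenitors (SD, n = 4 each). The order of levels on the brighter probe was MMC, BMMC, progenitors, IgE-crosslinked BMMC. BMMC minus progenitors (0.57) and IgE-crosslinked BMMC minus progenitors (-0.24) were both smaller in size than the progenitor SD of 0.60. On the second probe progenitors lay above BMMC (means of 15.3 and 13.3 scaled units).

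MMC minus BMMC was 1.20 on the log2 scale (SE 0.24), a 2.29-fold difference, the highest of the 207 miRNAs tested between these groups. This is the contrast that chose miR-452. In it 20.8% of the miRNAs tested were called at an adjusted p under 0.05, 16.9% as higher and 3.86% as lower, and the groups did not overlap for 34.8%. With no scaling the difference was 0.19 (SE 0.22), while the median of all miRNAs tested moved to -0.86. Relative to that median miR-452 was 1.05 higher without scaling, against 1.18 with the scaling used. The second probe gave 1.21 (SE 0.16), with BMMC replicates 1 and 3 raised to the floor. Within the slides the difference was 0.90 on the first and 1.50 on the second, with 2 arrays of each group on each slide.

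MMC minus IgE-crosslinked BMMC was 2.01 (SE 0.24), 4.02-fold and the highest of 174 miRNAs tested, of which 32.2% were called and 44.3% had groups that did not overlap. MMC minus progenitors was 1.76 (SE 0.24), 3.40-fold and in place 8 of 189, of which 73% were called and 67.7% had groups that did not overlap. Both share the MMC arrays with the contrast that chose miR-452. With normexp correction of the background MMC minus progenitors was -0.065, where the median of all was -0.50. For all 3 comparisons with MMC the groups did not overlap on the scaled values of the brighter probe.

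IgE-crosslinked BMMC against BMMC was the first comparison that did not use MMC arrays, although it shares the BMMC arrays with the contrast that chose miR-452. miR-452 fell in IgE-crosslinked BMMC relative to BMMC, by 0.81 on the log2 scale (-0.81, SE 0.24, 95% interval -1.32 to -0.30), or 1.75-fold. The adjusted p was 0.0229 (limma over 207 miRNAs, Benjamini-Hochberg, n = 4 each), and all 4 arrays of IgE-crosslinked BMMC were below all 4 of BMMC. In this comparison 25.6% of the miRNAs tested were called, 7.25% as lower and 18.4% as higher, and 29% had groups that did not overlap. Only 4 of the 207 had a lower difference than miR-452.

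This fall rests on few arrays and near-background signals. The call was kept in 12 of 16 fits that each left out 1 array. Without BMMC replicate 2 the difference was -0.73 with an adjusted p of 0.0623, and without IgE-crosslinked BMMC replicate 1, 2 or 4 the adjusted p was 0.0660, 0.0598 or 0.0742. On the second probe the difference was -0.21 (adjusted p 0.522). Its IgE-crosslinked BMMC values all lay at the floor, and BMMC replicates 1 and 3, though well above background, were raised to it. With normexp correction the brighter probe gave 0.42, the opposite sign, where the median of all was 0.38. Larger falls came with no scaling (-2.70, adjusted p 1.07e-08, where the median of all was -1.82) and with the percentile of all probes as the scale (-1.03, adjusted p 0.00154).

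BMMC were higher than progenitors by 0.57 (SE 0.24, 95% interval 0.055 to 1.08), or 1.48-fold, with an adjusted p of 0.0490 (limma over all miRNAs tested, n = 4 each). The call sits at the threshold and the groups overlapped. Of the miRNAs tested 66.4% were called in this comparison, 21.2% as higher and 45.2% as lower, and 56.7% had groups that did not overlap, so a call here is common. miR-452 stood in place 32 from the highest, and the median of all was -0.30.

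The call was kept in 3 of 16 fits that each left out 1 array. Without progenitor replicate 1, the array with the high reading, the difference was 0.86 (adjusted p 0.000835). Without progenitor replicate 4, the array that stands apart for dim miRNAs, it was 0.63 (adjusted p 0.0182), and without BMMC replicate 1 it was 0.64 (adjusted p 0.0369). Leaving out any of the other 13 arrays, in any of the 4 groups, ended the call, with adjusted p-values up to 0.120. The second probe gave the other sign, -0.26 (adjusted p 0.201), as did normexp correction (-0.56, median of all -0.60). Larger rises came with no scaling (2.43, adjusted p 3.60e-08, median of all 1.38), the percentile of all probes (1.57, adjusted p 5.22e-06, median 0.72), quantile normalisation (1.30, adjusted p 8.43e-05, median 0.06) and the submitters' value table (1.36, adjusted p 0.00962). On the first slide the difference was 1.13 and on the second -0.0024, where progenitor replicate 1 is one of 2 progenitor arrays.

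IgE-crosslinked BMMC minus progenitors was -0.24 (SE 0.24). It was not tested, since miR-452 was well above background on fewer than 3 arrays of both groups. With the percentile of all probes as the scale the difference was 0.53, and without progenitor replicate 1 it was 0.052, so its direction is not settled.

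**Figure D2:**
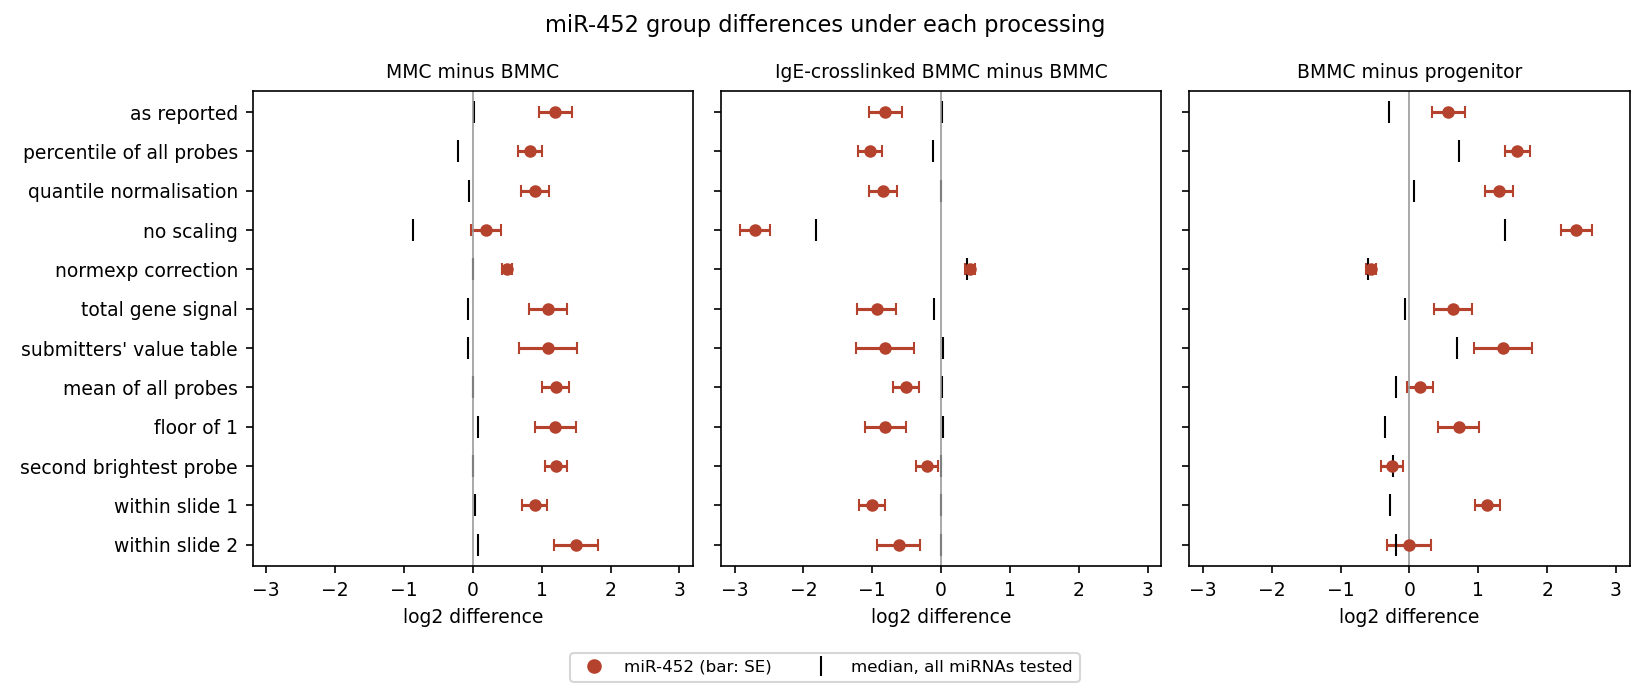
Difference of miR-452 between groups (x axis, log2, point with SE bar) under 12 ways of processing the same arrays, with the median of all miRNAs tested as a vertical tick. MMC minus BMMC is above 0 in every line, from 0.19 without scaling to 1.50 within the second slide. With normexp the other comparisons take the opposite sign (0.42 and -0.56), where the medians of all are 0.38 and -0.60. BMMC minus progenitor also falls below 0 with the second probe (-0.26) and within the second slide (-0.0024).

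The ratio of the miR-452 probes is taken within an array, so the scaling between arrays cancels, and it is given as a description with no test. The brighter probe over the second was 2.04, 2.02, 1.86 and 1.91 in MMC, 1.94, 2.49, 1.97 and 2.01 in IgE-crosslinked BMMC, and 2.19, 1.91, 2.15 and 1.95 in BMMC. In progenitors it was 1.51, 1.00, 1.01 and 1.14. Both probes were well above background on 4 of 4 MMC, 0 of 4 IgE-crosslinked BMMC, 4 of 4 BMMC and 1 of 4 progenitor arrays, the last being replicate 1 with the ratio of 1.51. The ratios of the IgE-crosslinked BMMC and of the other 3 progenitor arrays are of signals at background. Among the arrays that measured both probes, the MMC (1.86 to 2.04) and BMMC (1.91 to 2.19) overlapped, and the 1 progenitor array lay below them. The 2 probes differ by 1 base in length, and whether sequence variants of miR-452 or other RNAs contributed was not tested.

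**Figure D3:**
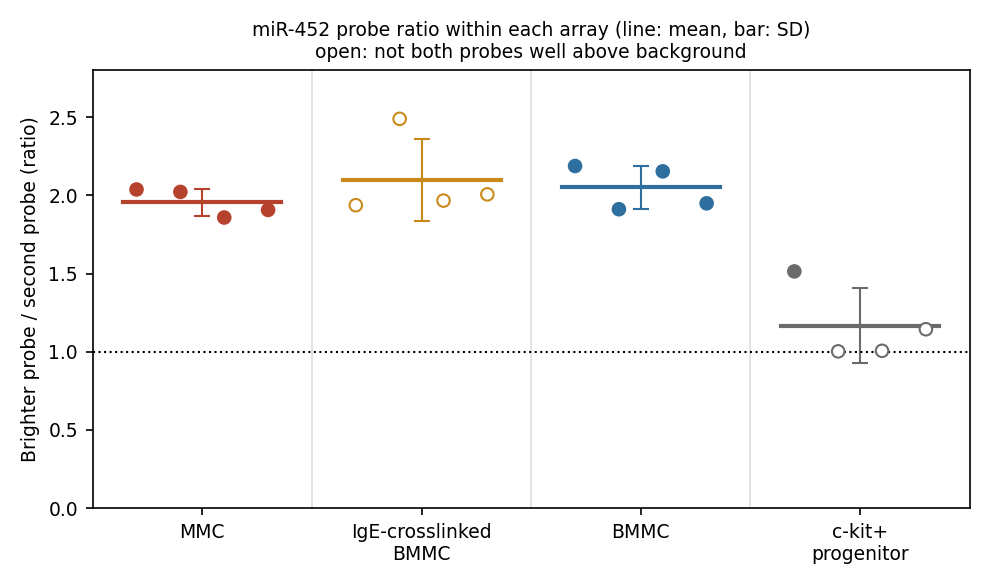
Ratio of the brighter to the second miR-452 probe on each array (y axis, starting at 0), with group mean and SD (n = 4 each) and a dotted line at 1. Filled symbols are arrays with both probes well above background, and open symbols are the others. The mast cell groups average 1.96 (MMC), 2.10 (IgE-crosslinked BMMC) and 2.05 (BMMC), and the progenitors 1.17.

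miR-224 was not measured above background in any group. None of the 64 readings of its 4 probes on 16 arrays was well above background, and none of the 319 spots behind them was. Of the 64 readings, 41 were below 0 after the scanner software's background subtraction. On the 15 arrays other than progenitor replicate 4 they lay between -2.14 and 1.69 units, and on that array between -17.6 and -9.48. Every reading was below the lowest signal that counted as well above background on its array.

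The scanner software's own flag gave the same picture for miR-224, detected on 0 of 4 arrays in each group. That flag called miR-452 detected on 4 MMC, 4 IgE-crosslinked BMMC, 4 BMMC and 3 progenitor arrays. It was thus more lenient for miR-452 than the spot flags of the brighter probe, with 2 IgE-crosslinked BMMC and 1 progenitor array. No fold is given for miR-224, because both sides of any comparison are below background. Whether miR-224 is made in these cells is not settled by this, since a level under the background of the array would not be seen. Levels of miR-452 and miR-224 were not compared, as they were read by different probes.

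**Figure D4:**
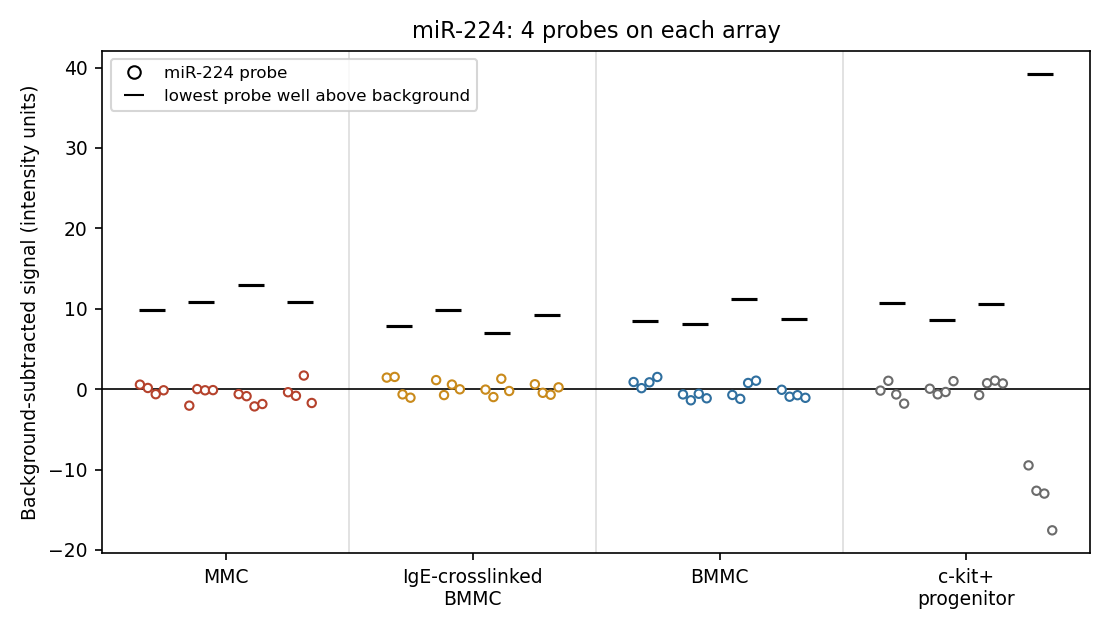
Background-subtracted signal of the 4 miR-224 probes (open circles, y axis in intensity units) on each array, by group with replicates 1 to 4 from left to right, and the lowest signal well above background on that array (black bars). Every circle lies below its bar, and progenitor replicate 4 stands apart with a bar at 39.2 and circles down to -17.6.

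In the submitters' table of normalised values miR-224 nevertheless has group means of -0.12 in MMC, 0.99 in IgE-crosslinked BMMC, -0.98 in BMMC and -0.01 in progenitors (log2, centred). On 15 of the 16 arrays its signal had been raised to 1 before scaling, and 131 other entries hold the same values on at least 15 arrays. These values therefore carry the scale of each array and no miR-224 signal. For miR-452 the same table gives 1.44 in MMC, -0.46 in IgE-crosslinked BMMC, 0.35 in BMMC and -1.01 in progenitors.

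The 5 miRNAs whose profile over the 16 arrays was most like that of miR-452 were miR-125a-3p, miR-494, miR-762, miR-721 and miR-134. Likeness was the root mean square difference of log2 values, each miRNA centred on its own mean, and came to 0.32, 0.35, 0.37, 0.40 and 0.48. The median over the 216 other fitted miRNAs was 0.92, and the next in line had 0.49. All 5 had their highest group mean in MMC, as their choice makes likely.

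**Figure D5:**
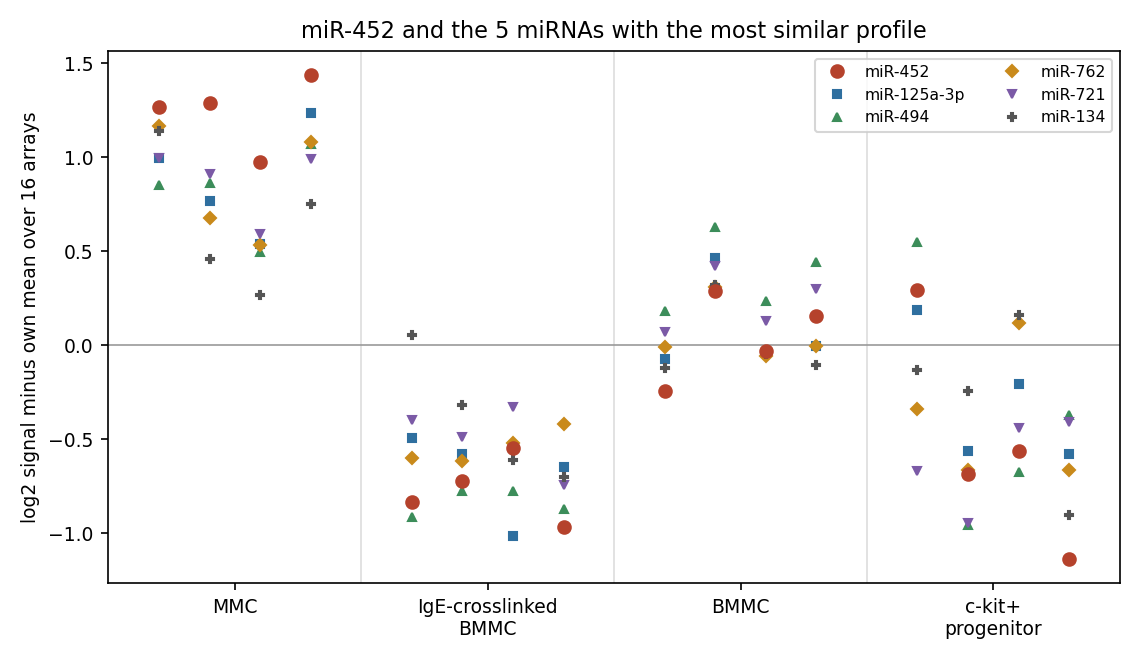
Log2 signal of miR-452 and the 5 miRNAs most like it, each minus its own mean over 16 arrays (y axis), for every array by group. All 6 lie above 0 on every MMC array, and miR-452 has the highest value on each of them.

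The mature sequences of 3 of these are shown to set their seeds, in capitals, beside that of miR-452-5p. For miR-494 and miR-134 the array name does not give the arm, so none is shown.
mmu-miR-125a-3p: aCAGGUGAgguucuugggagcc
mmu-miR-762: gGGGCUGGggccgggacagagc
mmu-miR-721: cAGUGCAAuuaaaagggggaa
None has the seed of miR-452-5p, and they come from chromosomes 17, 7 and 5, not from X. Their log2 levels spanned a wide range, with means in MMC of 6.36 for miR-125a-3p, 11.04 for miR-494, 5.09 for miR-762, 7.97 for miR-721 and 5.11 for miR-134.

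MMC minus BMMC was 0.80 for miR-125a-3p and for miR-762, 0.64 for miR-721 and miR-134, and 0.45 for miR-494. Without scaling all 5 had a negative difference, from -0.21 for miR-125a-3p and miR-762 to -0.56 for miR-494. miR-452 fell as well, from 1.20 to 0.19. The scaling shifts every miRNA above the floor alike, so these signs add nothing to the scaled differences. IgE-crosslinked BMMC minus BMMC was -1.21 for miR-494, -0.77 for miR-125a-3p, -0.72 for miR-721, -0.60 for miR-762 and -0.41 for miR-134. These values are descriptions, because the 5 were chosen on the same arrays.

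MMC cultures had received TGF-beta, so miRNAs known to respond to TGF-beta in other cells were set beside miR-452. The list was fixed without a direction of response for its members. Its counts and median therefore do not show a response to TGF-beta or the lack of one. Of the 23 listed, 22 were on the array and 13 were tested between MMC and BMMC. Among the 13, miR-192, miR-200c and miR-141 lay at the floor in MMC, IgE-crosslinked BMMC and BMMC with the scaling used. They could not be called between these groups and count as a difference of 0 in the list median. miR-21 and miR-24 were called higher in MMC, none was called lower, and the list median was 0.04, against 0.01 over all miRNAs, of which 16.9% were called higher and 3.86% lower. miR-21, a miRNA raised by TGF-beta through Smad proteins, was 1.11 higher (adjusted p 2.04e-06 by limma, n = 4 each), and miR-24 was 0.32 higher (adjusted p 0.00137). These calls depended on the scaling. With the percentile of all probes neither was called, and with quantile normalisation miR-21 was not (0.05, adjusted p 0.622). Without scaling the differences were 0.10 for miR-21 and -0.69 for miR-24. There 12 of the 13 were called lower in MMC and 0 higher, beside 150 lower and 0 higher of 207 over all.

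In the other comparisons 4 of the 13 were called higher in IgE-crosslinked BMMC than in BMMC and none lower. Over all miRNAs tested 18.4% were called higher and 7.25% lower. With no scaling all 13 were called lower, beside 195 lower and 1 higher of 207 over all. Between BMMC and progenitors 7 were called higher and 2 lower (list median 0.24, against -0.30 over all), beside 21.2% higher and 45.2% lower over all. miR-29b, which represses collagen genes, was the member with the lowest adjusted p there, 1.41 higher in BMMC (adjusted p 2.26e-09). No member but miR-155 and miR-181b, which are immune-cell miRNAs, was called lower in BMMC than in progenitors, and with the percentile of all probes 8 were called higher and 0 lower.

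A second group of miRNAs on the X chromosome, those of the Clcn5 gene, was read as a comparison for the locus. Of 10 listed 9 were on the array and 8 were tested in the comparisons with BMMC, but only 6 in each comparison without BMMC. A member that passed the detection limit only in BMMC could lie at the floor in both groups, and then could not be called. Between MMC and BMMC 1 was called higher, miR-188-5p by 0.68 (adjusted p 0.00718), and none lower, with a list median of -0.01, beside 16.9% higher and 3.86% lower over all miRNAs tested. With the percentile of all probes as the scale 0 were called higher and 3 lower, beside 8 higher and 14 lower of 207 over all. Without scaling miR-188-5p was at -0.33, where the median of all was -0.86.

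Between IgE-crosslinked BMMC and BMMC none of the Clcn5 miRNAs was called higher and 2 were called lower, miR-188-5p by 0.58 (-0.58, adjusted p 0.0197) and miR-500 by 0.44 (-0.44, adjusted p 0.000378), beside 18.4% higher and 7.25% lower over all. With normexp correction 7 were called higher and 0 lower, beside 164 higher and 5 lower of 207 over all. Between BMMC and progenitors 4 of 8 were called higher and none lower, miR-500 by 1.02 (adjusted p 1.37e-08) and miR-532-5p by 1.16 (adjusted p 5.75e-06), beside 21.2% higher and 45.2% lower over all. Here normexp correction gave 0 higher and 7 lower, beside 25 higher and 175 lower over all miRNAs tested. The list median was then -0.49, where the median of all was -0.60.

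Of the 9 miRNAs in the cluster near Hprt, also on X, all were on the array and 4 were tested. With the scaling used, none was called in MMC or in IgE-crosslinked BMMC against BMMC, beside 20.8% and 25.6% over all miRNAs tested. Only 2 of the 4 were tested in each comparison without BMMC. A member that passed the detection limit only in BMMC could lie at the floor in both groups, and then could not be called. With normexp correction all 4 were called higher in IgE-crosslinked BMMC, beside 164 higher and 5 lower of 207 over all. With the percentile of all probes or quantile normalisation 1 was called lower in MMC, beside 14 or 35 lower of 207 over all. With no scaling 2 were called lower in each, beside 150 of 207 over all in MMC and 195 of 207 in IgE-crosslinked BMMC. miR-450a-5p and miR-322 were called lower in BMMC than in progenitors, by 1.12 (-1.12, adjusted p 4.76e-07) and 0.63 (-0.63, adjusted p 9.89e-07), so 2 of 4 were lower beside 45.2% over all. With the percentile of all probes as the scale both were higher in BMMC, by 0.38 and 0.92, where the median of all was 0.72.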

How the data were processed

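Total RNA (100 ng, RNA integrity number above 8 per the labels' protocols) was labelled with Cy3 and hybridised to 1-colour Agilent miRNA arrays of 12493 spots. Per the file headers, intensities were extracted with Agilent Feature Extraction 9.5.1.1, which subtracts background, and the array design used mm9. The deposited files hold these intensities per spot. The deposited value table holds log2 values, and it was rebuilt to within 0.0155 from the total gene signal raised to at least 1, minus the array's 75th percentile and centred on each miRNA's median. Its direction and scale are therefore known, and array medians ran from -0.98 to 0.82.

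Control spots (953) and outlier spots were left out, and spots were averaged per probe. A probe was well above background when more than 50% of its spots carried that flag. Arrays were scaled to the 75th percentile of the 205 probes well above background on all arrays, and values below 11.8 were raised to it. The brightest probe stood for a miRNA. The miRNAs that passed this limit on 3 or more arrays of any group were fitted over 16 arrays with limma 3.58.1 in R 4.3.3 (12 residual degrees of freedom), and p-values were adjusted by Benjamini-Hochberg over the miRNAs tested in a comparison, with a threshold of 0.05. The fit was tested on simulated data. The number of arrays limits the precision, and 0 spots were saturated.

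The members, the miRNA lists and the tests were chosen with earlier results of these data known. Other miRNAs named are the 5 most like miR-452 over the arrays and up to 3 members of each list, those with the lowest adjusted p or, against MMC, the largest difference. miR-155, miR-181b, miR-192, miR-200c, miR-141 and the members of a pair counted were named after their values were seen. Alternatives covered scaling, background correction, probe choice, floor, filter, slide, replicate number and each array left out. Sequences came from RefSeq tables of GRCm38.p6. The sources used here do not give whether the same cultures gave several groups.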

Additional observations from a re-analysis of the deposited data

Results flagged for a closer look

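Of 36 groups of 4 values examined for a value far from the other 3, 5 held one. The groups were not independent, since probes of a miRNA share their target and miR-452 was entered scaled and as scanned. Their number therefore cannot be set against the about 1 in 20 groups that chance sets apart. On progenitor replicate 4 all 4 miR-224 probes lay far below the other progenitor arrays, at -9.48, -12.6, -13.0 and -17.6 units as scanned. The same array had the lowest signal well above background at 39.2 units, and its part in these readings was not tested. The log2 ratio of the miR-452 probes was 1.32 in IgE-crosslinked BMMC replicate 2, a ratio of 2.49, against 1.94 to 2.01 in the other 3 arrays of that group. The second probe was not well above background on any of these arrays.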

How the results depend on the processing

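miR-452 differences depended on scaling, background correction and probe. With normexp, which adds 50 units before scaling and left the brighter probe at the floor on all BMMC arrays, the log2 differences were -0.56 for BMMC minus progenitor, 0.42 for IgE-crosslinked BMMC minus BMMC, 0.50 for MMC minus BMMC, -0.065 for MMC minus progenitor and 0.079 for MMC minus IgE-crosslinked BMMC. The medians of all miRNAs tested with normexp were -0.60, 0.38, 0.007, -0.50 and -0.31 in the same order. With no scaling the comparisons of MMC gave 0.19 against BMMC, 2.61 against progenitors and 2.89 against IgE-crosslinked BMMC. With the percentile of all probes, MMC minus BMMC was 0.83, MMC minus progenitor 2.39 and IgE-crosslinked BMMC minus progenitor 0.53. Quantile normalisation gave 2.21 for MMC minus progenitor and 0.46 for IgE-crosslinked BMMC minus progenitor, and the value table gave 2.45 and 0.55 for the same comparisons. The mean of both probes gave 1.36 for MMC minus progenitor. The second probe gave 0.95 for MMC minus progenitor, 1.41 for MMC minus IgE-crosslinked BMMC and -0.26 for BMMC minus progenitor. With no scaling and the percentile of all probes BMMC minus progenitor was 2.43 and 1.57, and IgE-crosslinked BMMC minus BMMC -2.70 and -1.03. The cause of these shifts was not tested.

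The BMMC minus progenitor call was lost with total gene signal (0.64, adjusted p 0.0580), the mean of both probes (0.15), no filter (0.57, adjusted p 0.134), only the compared groups (0.57, adjusted p 0.148), the slide as a block (0.57, adjusted p 0.05004) and within the second slide (-0.0024). The IgE-crosslinked BMMC minus BMMC call was lost with the value table (-0.81, adjusted p 0.285), the mean of both probes (-0.51), a floor of 1 (-0.81, adjusted p 0.0651), no filter (-0.81, adjusted p 0.0784), the second probe (-0.21) and within the second slide (-0.62). IgE-crosslinked BMMC minus progenitor was 0.13 on the first slide and -0.62 on the second. The slide fits and the second probe were added after seeing the data.

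With each array left out, BMMC minus progenitor was 0.47 to 0.86, IgE-crosslinked BMMC minus BMMC -0.90 to -0.73, IgE-crosslinked BMMC minus progenitor -0.31 to 0.052, MMC minus BMMC 1.08 to 1.29, MMC minus IgE-crosslinked BMMC 1.90 to 2.11 and MMC minus progenitor 1.68 to 2.06. Of 24 same-numbered pairs of arrays 8 had deviations correlated over 0.1, and no pair of groups had all 4 over it, so the numbers were not treated as pairing the samples. MMC and IgE-crosslinked BMMC came closest (0.07 to 0.47), and each of their 8 arrays correlated best with its own number, a hint from the data and not the design. With the replicate number as a block BMMC minus progenitor was 0.57 (adjusted p 0.0759) and IgE-crosslinked BMMC minus BMMC -0.81 (adjusted p 0.0464).

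Over all miRNAs MMC against BMMC had 35 calls higher and 8 lower, 8 and 14 with the percentile of all probes, 20 and 35 with quantile normalisation, 0 and 150 with no scaling and 57 and 4 with normexp. With the percentile of all probes IgE-crosslinked BMMC against BMMC had 9 higher and 31 lower (38 and 15 as reported), and BMMC against progenitors 123 and 32 (46 and 98). miR-224 was detected on 0 arrays by its probes and by the gene flag. Normexp and the value table carry no detection flag and gave no such count. Background limits miR-452 in IgE-crosslinked BMMC and progenitors.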
